A study of Mus musculus with 12 samples.

Results

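The 9 genes Msln, Upk3b, Upk1b, Lrrn4, Gpm6a, Wt1, Krt8, Krt18 and Krt19 were examined in mouse epididymal white adipose tissue (eWAT). They were picked by symbol as genes that mark the mesothelium or simple epithelia, and each of the 9 was matched by its Ensembl identifier to 1 row among the 23474 genes of the expression table. Male C57BL/6J mice, housed singly, were put on their diets at 5 weeks of age for 12 weeks, with 10 mice in a group, and were 17 weeks old at the end. The ND group ate a normal diet and the HFD group a high-fat diet. The GT group ate the high-fat diet with 0.25% (w/w) of an ethanol extract of green tea, and the TJ group ate it with 3% (w/w) of Taeeumjowuitang, an oriental herbal formula. RNA-seq of eWAT was available from 3 mice in each of the 4 groups, 12 libraries in all, and values are in FPKM (fragments per kilobase of transcript, scaled to the mapped fragments of the library). The ND libraries are the reference for the diet, and the HFD libraries are the shared reference for TJ and GT.

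The mesothelium is the single sheet of flattened cells that lines the abdominal cavity and covers the organs in it, visceral fat included. It comes from mesoderm but carries epithelial traits, among them keratin filaments of the simple-epithelium type and several surface glycoproteins. Subcutaneous fat lacks this cover, so mesothelial genes are among those that set visceral fat apart. The epididymal fat pad lies against the epididymis and the testis. The epididymal duct is lined by an epithelium that also makes simple-epithelium keratins, and Sertoli cells of the testis make Wt1. In RNA from whole tissue, fewer cells of a type and less RNA per cell cannot be told apart.

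Libraries differed in what they held beside fat. All 8 listed adipocyte genes were at 1 FPKM or above in every library, but Adipoq (adiponectin) was at 202 FPKM in ND 1 and between 908 and 3738 FPKM in the other 11 libraries. In ND 1 the 10 listed testis germ cell genes made up 10.2% of all FPKM and the 12 listed epididymis genes 2.83%. The germ cell genes made up 0.6% in ND 3 and 0.392% in HFD 1, and the epididymis genes 0.242% in HFD 2. In the remaining libraries the germ cell genes were at 0.0286% or less. The depth estimated from the steps of the FPKM values was about 10.7 M (mega) fragments in ND 1 and between 14.1 and 19.5 M in the others. At that depth 1 FPKM of Msln stood for about 23.2 to 42.2 fragments.

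The surface proteins came first. Msln (mesothelin, a glycoprotein tethered to the outer membrane, on chromosome 17 at 25748613 to 25754378, minus strand, GRCm38) was at 1.71, 4.40 and 4.74 FPKM in ND 1 to 3. It was at 0.886, 1.02 and 1.27 FPKM in the HFD group. It was at 1.05, 0.685 and 2.12 FPKM in the GT group and at 0.0768, 2.88 and 0.933 FPKM in the TJ group. Every HFD library was below every ND library, whereas the GT and TJ libraries overlapped those of the ND group. The value in TJ 1 rested on about 2.82 fragments, so it cannot be told from a value several times larger or smaller.

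Upk3b (uroplakin 3B, a membrane protein of urothelium and mesothelium, on chromosome 5 at 136038496 to 136046487, plus strand) was at 3.74, 11.65 and 10.99 FPKM in ND 1 to 3. It was at 2.46, 2.37 and 5.15 FPKM in the HFD group, at 2.17, 1.59 and 5.83 FPKM in the GT group and at 0.846, 8.04 and 2.38 FPKM in the TJ group. As with Msln, TJ 2 was the highest and TJ 1 the lowest library of the TJ group. ND 2 and ND 3 were above all of the other 10 libraries, and ND 1 lay within the range of the high-fat groups.

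Lrrn4 (a membrane protein with leucine-rich repeats, chromosome 2, 132868305 to 132880891, minus strand) and Gpm6a (the membrane glycoprotein M6A, known from neurons, chromosome 8, 54954843 to 55060871, plus strand) had the same outline. Lrrn4 was at 0.463, 3.92 and 4.11 FPKM in ND 1 to 3. In the HFD group it was at 0.682, 0.765 and 0.832 FPKM, and over the GT and TJ groups it ranged from 0.3999 to 1.570 FPKM. For both genes ND 2 and ND 3 were above the other 10 libraries, while ND 1 was among the low ones. Gpm6a was at 1.24, 5.93 and 5.24 FPKM in ND 1 to 3. In the HFD group it was at 1.35, 1.64 and 1.96 FPKM, and over the GT and TJ groups it ranged from 0.8387 to 2.297 FPKM. The span of Gpm6a holds 5 short unconfirmed transcript models on its own strand, whose fragments the counting could assign to either.

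Upk1b (uroplakin 1B, a tetraspanin, chromosome 16, 38773184 to 38800328, minus strand) departed from this outline in ND 1. It was at 6.84, 3.70 and 3.11 FPKM in ND 1 to 3, so ND 1 was its highest library. It was at 0.593, 0.631 and 2.90 FPKM in the HFD group, at 0.766, 0.511 and 1.29 FPKM in the GT group and at 0.284, 1.43 and 0.565 FPKM in the TJ group. All 9 libraries of the high-fat groups were below the 3 ND libraries, with HFD 3 the nearest. Other uroplakins were high in ND 1 too, and Upk1a and Upk3a also in HFD 3. Upk1a was at 3.22 FPKM in ND 1, at 2.27 FPKM in HFD 3 and at 0.339 FPKM or less elsewhere, and Upk3a was at 2.94 FPKM in ND 1, at 1.08 FPKM in HFD 3 and at 0.0563 FPKM or less elsewhere. Upk2 was at 2.47 FPKM in ND 1 and at 0.186 FPKM or less in the others. Upk3bl was at 34.2 FPKM in ND 1, at 1.23 FPKM in ND 3 and at 0.383 FPKM or less elsewhere. Upk1b, Upk1a, Upk3a and Upk2 together form the plaques of the urothelium, and the part of such RNA in the Upk1b values was not tested.

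Wt1 (a zinc finger transcription factor of the mesothelium, also made by progenitors of visceral fat and by Sertoli cells, chromosome 2, 105126529 to 105173616, plus strand) was at 13.3, 4.40 and 7.48 FPKM in ND 1 to 3. It was at 5.06, 3.34 and 3.38 FPKM in the HFD group. It was at 1.95, 1.71 and 2.33 FPKM in the GT group and at 1.88, 2.15 and 1.18 FPKM in the TJ group. All 6 GT and TJ libraries were below the 3 HFD libraries. The TJ and GT libraries overlapped, as did the HFD and ND libraries.

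**Figure D1:**
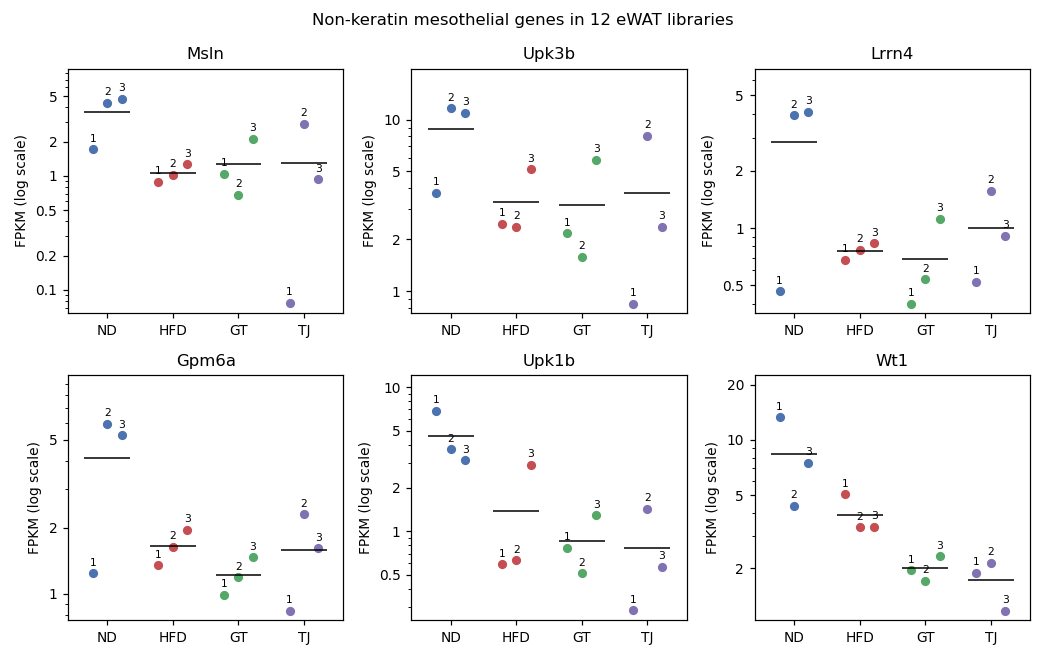
FPKM on a log scale of the 6 non-keratin genes in 12 eWAT libraries, 1 point for each library with its replicate number, and a bar at the group mean. ND 2 and ND 3 lie above the other 10 libraries for Msln, Upk3b, Lrrn4 and Gpm6a, while Wt1 in GT and TJ lies below all 3 HFD libraries.

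Keratins were the most uneven of the 9 genes. Krt8 and Krt18 encode the type II and type I partners that pair into the filaments of simple epithelia, and Krt19 encodes a small type I keratin of ducts and mesothelium. Krt8 (chromosome 15, 101996698 to 102004482, minus strand) was at 73.1, 0.534 and 43.5 FPKM in ND 1 to 3 and at 5.69, 14.9 and 1.69 FPKM in HFD 1 to 3. It was at 1.64, 2.099 and 2.96 FPKM in the GT group and at 0.251, 1.17 and 0.968 FPKM in the TJ group. Within the ND group the lowest library was below every HFD and GT library, and the other two were above every other library of the series. A noncoding gene, Gm36026, overlaps Krt8 on the opposite strand, and the library kit does not mark strand.

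Krt18 (chromosome 15, 102028180 to 102032027, plus strand, 23697 bases from Krt8) followed its partner. It was at 119, 1.06 and 22.6 FPKM in ND 1 to 3 and at 2.96, 13.4 and 1.28 FPKM in HFD 1 to 3. Over the GT group it ranged from 1.35 to 1.79 FPKM and over the TJ group from 0.412 to 1.45 FPKM. ND 1, ND 3, HFD 2 and HFD 1 were, in this order, its 4 highest libraries. Krt19 (chromosome 11, 100140810 to 100148665, minus strand) was at 52.8, 2.32 and 13.6 FPKM in ND 1 to 3. It was at 1.71, 1.67 and 1.25 FPKM in the HFD group, at 1.06, 1.14 and 1.44 FPKM in the GT group and at 0.239, 2.31 and 0.553 FPKM in the TJ group. HFD 2, high for Krt8 and Krt18, did not stand out for Krt19.

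Several general epithelial genes were high in the libraries where Krt8 and Krt18 were high. Of the 10 listed, 9 were at 1 FPKM or more in ND 1, 8 in ND 3, 7 in HFD 2 and 3 in HFD 1, against 0 or 1 in the other 8 libraries. Elf3 was listed at 0 in every library, and Krt7 (1.34 FPKM in HFD 3, 0.365 FPKM in HFD 1) and Cldn4 (0.515 FPKM in HFD 3, 0.203 FPKM in ND 3) did not follow this order. Epcam (an adhesion molecule of epithelia) was at 23.3 FPKM in ND 1, 16.5 FPKM in ND 3, 7.89 FPKM in HFD 2 and 2.71 FPKM in HFD 1. In the other 8 libraries it was at 0.76 FPKM or less, and in TJ 1 it was listed at 0. Summed over the 10 listed epithelial genes, these 4 libraries were at 443, 49.6, 34.2 and 8.07 FPKM, Cldn3 alone giving 327 FPKM in ND 1. The other 8 ranged from 0.863 to 3.18 FPKM. Of the epididymis genes, Crisp1 (a secreted protein of the epididymal duct) was at 1172 FPKM in HFD 2, at 110 FPKM in ND 1 and at 11.03 FPKM or less elsewhere. In ND 3 all 12 epididymis genes were above 0, 6 of them at 1 FPKM or more, and they summed to 56.2 FPKM. The part of such RNA in the keratin values was not tested. In ND 2, where Msln, Upk3b, Lrrn4 and Gpm6a were near their highest, Krt8 was at 0.534 FPKM and Epcam at 0.129 FPKM.

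**Figure D2:**
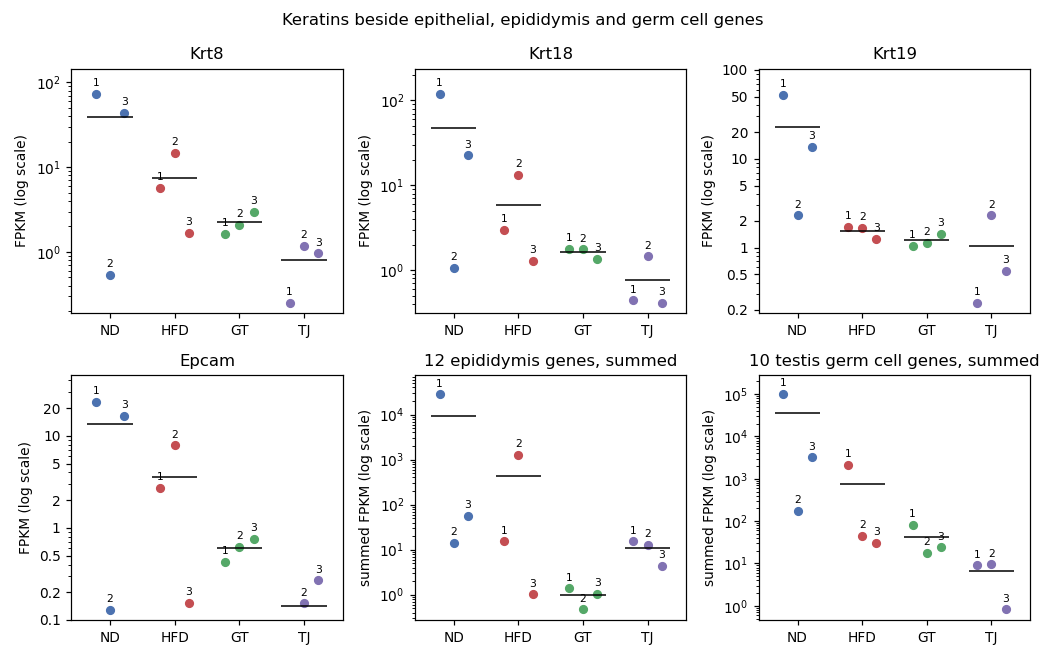
FPKM on a log scale of Krt8, Krt18, Krt19 and Epcam and the summed FPKM of 12 epididymis and 10 testis germ cell genes, 1 point for each of 12 libraries with its replicate number, and a bar at the group mean. Epcam was listed at 0 in TJ 1 and has no point there, and ND 1, ND 3, HFD 1 and HFD 2 are the 4 highest libraries for Krt8, Krt18 and Epcam.

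The sequences just upstream of the paired keratin genes and of Upk3b are shown because Krt8 and Krt18 went together and Upk3b did not go with them. They end at the base before the annotated gene and are from RefSeq (GRCm38.p6), in the direction of transcription. They are Krt8 at chr15:102004483-102004592 (minus strand), Krt18 at chr15:102028030-102028179 (plus strand) and Upk3b at chr5:136038346-136038495 (plus strand). Capitals mark ACTTCCTG, a motif of the ETS family type that was chosen after the sequences had been seen.
Krt8: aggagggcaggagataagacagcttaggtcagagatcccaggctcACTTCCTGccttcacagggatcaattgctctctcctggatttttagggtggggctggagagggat
Krt18: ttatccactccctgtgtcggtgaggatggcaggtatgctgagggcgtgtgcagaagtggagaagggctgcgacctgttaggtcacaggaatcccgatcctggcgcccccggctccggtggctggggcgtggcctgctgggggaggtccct
Upk3b: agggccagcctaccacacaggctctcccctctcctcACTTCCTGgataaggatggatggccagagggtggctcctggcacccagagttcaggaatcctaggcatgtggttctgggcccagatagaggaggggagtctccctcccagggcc
The motif, read on both strands, was in 1.89% of 32851 mouse promoter windows of 150 bases, whereas the Krt8 window held 110 bases, so that this share is only a rough background for it. It was in the windows of Krt8 and Upk3b and not in that of Krt18, so it did not sort the genes by their pattern. TATAAA (7.57% of windows), GCGTGGG (2.85%) and GGGCGG (28.6%), the last 2 being short cores of WT1 and Sp1 sites, were in none of the 3. GC content was 53.6% for Krt8, 65.3% for Krt18 and 62% for Upk3b, against a median of 54% over all windows.

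The 9 genes fell into separate patterns over the libraries. On the log2(FPKM + 1) scale over 12 libraries, Pearson's r was 0.97 for Msln with Upk3b, 0.97 for Lrrn4 with Gpm6a and 0.97 for Krt8 with Krt18. The 3 keratin pairs had r between 0.865 and 0.966, and the 15 pairs without a keratin had a median r of 0.690. Over the 18 mixed pairs the median r was 0.291, with Wt1 and Krt19 the highest at 0.90. ND 1 carried part of this. Without ND 1 the median r was 0.869 for the pairs without a keratin and 0.384 for the mixed pairs. Krt19 then had r of 0.80 with Msln and 0.78 with Krt8, and so lay between the surface genes and its fellow keratins. These are descriptions, since the libraries share diets, depth and the foreign RNA given above.

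**Figure D3:**
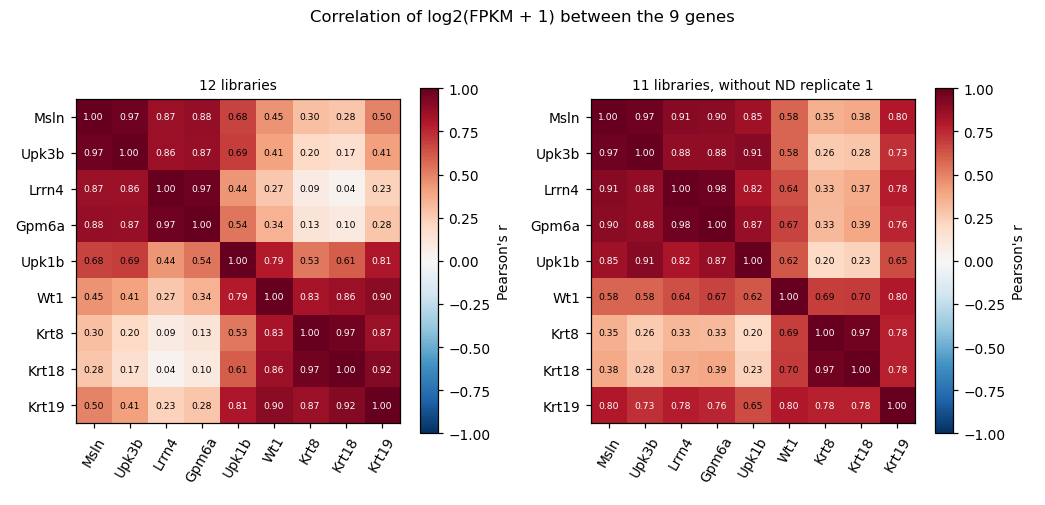
Pearson's r of log2(FPKM + 1) between the 9 genes over 12 libraries (left) and over 11 libraries without ND 1 (right), with color from −1 to 1. Msln, Upk3b, Lrrn4 and Gpm6a form a block in both panels, and Krt8 and Krt18 form a pair. On the left Wt1 and Krt19 go with that pair, Wt1 with r of 0.83 and 0.86 against 0.27 to 0.45 with the block. On the right Krt19 lies between, and Wt1 has r of 0.69 and 0.70 with the pair and 0.58 to 0.67 with the block.

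Genes outside the set were ranked by how closely they followed each pattern over the 12 libraries, among 13935 genes. Closest to the mean of the 6 non-keratin genes were Taf9b (r 0.886), Mkln1 (0.867), Utp4 (0.864), Ppl (0.856) and Zbtb20 (0.854). Ppl, which encodes the cytolinker periplakin, was at 1.88, 2.15 and 2.81 FPKM in ND 1 to 3 and at 0.567 to 1.53 FPKM in the other groups. Without ND 1 the gene most alike was Ebf2 (r 0.933, 11 libraries), a transcription factor of brown and beige fat precursors. Ebf2 was at 11.5 and 9.07 FPKM in ND 2 and ND 3, at 3.40 to 4.84 FPKM in the high-fat groups and at 0.362 FPKM in ND 1. Among those closest to the mean of the 3 keratins were Spint1 (0.986), Prss8 (0.984), Myo5b (0.982) and Prr15l (0.981). Spint1 and Prss8 encode a protease inhibitor and a membrane protease of epithelia. Prss8 was at 12.2 FPKM in ND 1, 5.27 FPKM in ND 3 and 2.58 FPKM in HFD 2, and at 0.443 FPKM or less in the other 9 libraries.

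The effect of the high-fat diet was read from HFD against ND. On the log2(FPKM + 1) scale all 9 genes had a lower mean in the HFD group than in the ND group, with a median difference of −1.11 against 0.07 over all genes tested. By limma, with a call at an adjusted p (Benjamini-Hochberg) under 0.05 and a difference of 1.5-fold or more, 0 of the 9 were called. The differences of Upk3b, Lrrn4, Gpm6a and Wt1 were −1.11, −0.92, −0.80 and −0.83, with SE between 0.44 and 0.57. At an unadjusted p under 0.05 there were 3, namely Msln (log2 fold change −1.09, SE 0.41, adjusted p = 0.382), Upk1b (−1.30, SE 0.50, adjusted p = 0.401) and Krt19 (−2.44, SE 0.98, adjusted p = 0.421), against 11.6% of all genes. Krt8 stood at −1.38 (SE 1.57) and Krt18 at −1.83 (SE 1.55), and single libraries moved them both ways. Their differences were largest without ND 2, at −3.12 (SE 0.82) and −3.40 (SE 1.07), and smallest without ND 1, at −0.33 and −0.46. Without HFD 2 they were −2.02 and −2.58. The same test called 1.77% of the 14430 genes, nearly all of them higher in the HFD group, and 0.0416% as lower. With the replicate number as a block it called 0 genes in all. Msln, Upk1b and Krt19 were also the 3 genes whose HFD values were all below the ND values, as held for 5.89% of all genes.

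Without ND 1, the library with the most testis and epididymis RNA, 4 of the 9 genes were significantly lower in HFD than in ND mice. Msln fell by 1.44 (SE 0.25, adjusted p = 0.01998 by limma), and Upk3b fell by 1.57 (SE 0.31, adjusted p = 0.0297). Lrrn4 fell by 1.51 (SE 0.27, adjusted p = 0.0207) and Gpm6a by 1.32 (SE 0.23, adjusted p = 0.0194). Of all 13661 genes, 4.34% were called lower without ND 1 and 15.4% in either direction. These 4 are the surface genes that stood low in ND 1. Lrrn4 passed the expression filter (a mean of 1 FPKM in the libraries compared) only through the ND libraries, its HFD mean being 0.760 FPKM, so its call is no separate support. With HFD 2, the other library with much epididymis RNA, left out as well, 0 of the 9 were called, although the differences kept their size. They were −1.43 for Msln (adjusted p = 0.0757), −1.42 for Upk3b (adjusted p = 0.110), −1.51 for Lrrn4 (adjusted p = 0.0726) and −1.32 for Gpm6a (adjusted p = 0.0799), with 875 genes called in all against 2098 and 1.25% called lower. Without ND 1 alone, 6 of the 9 genes had HFD values all below the 2 remaining ND values, as held for 19.2% of all genes. Krt8 (log2 fold change −0.33, SE 1.55) and Krt18 (−0.46, SE 1.26) had errors far larger than their differences, and Upk1b (−1.02), Wt1 (−0.48) and Krt19 (−1.46) were not called. In the same 5 libraries 6 of 8 adipocyte genes were called lower and Lep higher in the HFD group, and 5 of 10 fibroblast and progenitor genes were called higher. The part of such shifts in tissue makeup in the values of the 4 surface genes was not tested.

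All 9 high-fat libraries (HFD, GT and TJ) were also set against the 3 ND libraries. Here 3 of the 9 genes were called, all lower in the high-fat groups, against 5.45% of the 13935 genes called lower and 13.6% in either direction. Wt1 fell by 1.35 (SE 0.28, adjusted p = 0.0178), Upk1b fell by 1.498 (SE 0.36, adjusted p = 0.0300) and Krt19 fell by 2.66 (SE 0.65, adjusted p = 0.0316). All 3 were highest in ND 1, as were Krt8 and Krt18. Upk1b, with a mean of 0.997 FPKM over the high-fat libraries, passed the filter only through the ND libraries, as did Lrrn4 with 0.815 FPKM. All 10 germ cell genes and 1 of 12 epididymis genes (Cst8) were called lower in the same comparison. Upk1b and Krt19 had all 9 high-fat values below the ND values, as held for 1.83% of all genes, but for Krt19 this turned on 2.320 FPKM in ND 2 and 2.312 FPKM in TJ 2. Msln (−1.07), Upk3b (−1.19), Lrrn4 (−0.90), Gpm6a (−0.91), Krt8 (−2.37) and Krt18 (−2.67) had adjusted p-values between 0.0775 and 0.123. Without HFD 2, GT 1, GT 2, TJ 1 or TJ 3 alone, 1 of the 9 genes was called. Those fits called between 48 and 97 of all genes lower, against 760 with all libraries.

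Without ND 1 the same comparison called 6 of the 9 genes lower, against 5.28% of 13120 genes. Gpm6a fell by 1.43 (SE 0.23, adjusted p = 0.00516), Lrrn4 fell by 1.49 (SE 0.26, adjusted p = 0.00658) and Wt1 fell by 0.99 (SE 0.22, adjusted p = 0.0155). Msln (−1.42, adjusted p = 0.0348), Krt19 (−1.67, adjusted p = 0.0378) and Upk1b (−1.22, adjusted p = 0.0471) were called as well. Upk3b (−1.65, adjusted p = 0.0509) was just short of the threshold, and Krt8 (−1.31, SE 0.98) and Krt18 (−1.30, SE 0.80) were not called. Lrrn4 and Upk1b again passed the filter only through the ND libraries. With HFD 2 left out as well, 3 of the 9 were called lower, namely Gpm6a, Lrrn4 and Wt1, against 4.89% of all genes. Without ND 1 alone, the high-fat values of 6 genes were all below the ND values, as held for 7.82% of all genes. When ND 3, HFD 1 and HFD 2 were left out too, only ND 2 remained of the ND group, so the sizes of the differences alone are given. Gpm6a (−1.45), Lrrn4 (−1.44) and Msln (−1.32) then kept their size, whereas Krt19 shrank to −0.66, Wt1 to −0.72 and Upk1b to −1.03, and Krt8 stood at 0.68 and Krt18 at 0.08.

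**Figure D4:**
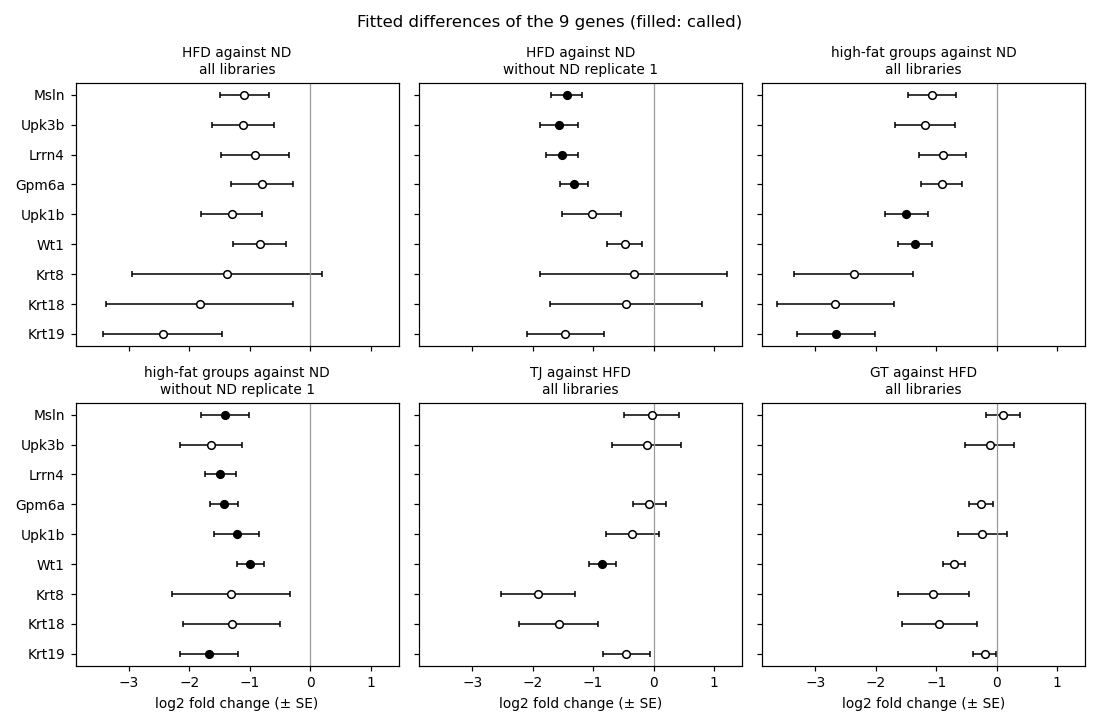
Log2 fold change of log2(FPKM + 1), with its standard error, of the 9 genes in 4 comparisons by limma and, for both comparisons with ND, without ND 1, with filled points for called genes. Lrrn4 was not tested in TJ against HFD or GT against HFD, and leaving out ND 1 in HFD against ND narrows the errors of Msln, Upk3b, Lrrn4 and Gpm6a.

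The effect of TJ was read from TJ against HFD. Lrrn4 was under the expression filter, and 1 of the other 8 genes was called, lower in the TJ group, against 11.1% of the 12807 genes called lower and 18.5% in either direction. Wt1 was significantly lower after TJ, with a mean of 1.74 ± 0.501 FPKM (SD, n = 3) against 3.92 ± 0.981 FPKM in HFD mice. Its log2 fold change was −0.85 (SE 0.23, adjusted p = 0.0435 by limma, range 0.0387 to 0.298 over the alternatives). Its difference was −0.69, −0.93 and −0.92 without HFD 1, HFD 2 and HFD 3 (adjusted p of 0.0871, 0.108 and 0.128) and −0.89 and −0.69 without TJ 1 and TJ 3 (adjusted p of 0.0982 and 0.0640). Without any 1 of the HFD libraries or TJ 1, the test called 0 genes in all, so these lost calls are not particular to Wt1. The Wt1 call was kept with a pseudocount of 0.1 and without TJ 2 and lost under the other alternatives. It was −0.74 under median-of-ratios scaling and −0.54 under quantile normalization (adjusted p of 0.0603 and 0.125 by limma). Those fits still called 2369 and 2673 genes, and the fit without TJ 3 called 3412. Wt1 and Krt8 had all TJ values below the HFD values, as held for 31.4% of all genes, so this share sets them apart little.

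Fibroblast and progenitor genes and adipocyte genes moved in the same libraries as Wt1. Of 10 fibroblast and progenitor genes, 5 were called lower in the TJ group (Col1a1, Col3a1, Lum, Pdgfra and Cd34), and the list summed to between 1916 and 2046 FPKM in the HFD group, between 1147 and 1521 FPKM in the GT group and between 1110 and 1219 FPKM in the TJ group. Of 8 adipocyte genes, 6 were called higher in the TJ group, against 7.41% of all genes. The 10 germ cell genes all had lower means in the TJ group (median −3.12, 0 called by limma). Of these, 4 had an unadjusted p under 0.05, near the share of 41.4% over all genes. HFD 1, which held the most germ cell RNA of the HFD group, was also the highest HFD library for Wt1. The part of these cell types, or of testis RNA, in the Wt1 value was not tested. Krt8 (log2 fold change −1.91, SE 0.61, adjusted p = 0.0621) and Krt18 (−1.57, SE 0.65, adjusted p = 0.114) were not called. Their TJ means of 0.798 and 0.766 FPKM, and that of Upk1b at 0.761 FPKM, were below 1 FPKM, so they passed the filter only through the HFD group. Without HFD 1 and HFD 2, the Krt8 difference was −0.62 (adjusted p = 0.377).

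The surface genes showed no detectable difference between the TJ and HFD groups. The log2 fold changes were −0.03 for Msln (SE 0.46), −0.12 for Upk3b (SE 0.57), −0.07 for Gpm6a (SE 0.27) and −0.35 for Upk1b (SE 0.44). Upk1b ranged from −0.0532 under quantile normalization to −1.20 (SE 0.41) without HFD 1 and HFD 2, and was called in none of the alternatives. Krt19 stood at −0.45 (SE 0.39). The signs of Msln and Gpm6a turned under other scalings of the libraries, and that of Upk3b under quantile normalization. The spread within the TJ group was large, with means of 1.30 ± 1.44 FPKM for Msln and 3.76 ± 3.79 FPKM for Upk3b (SD, n = 3). The median difference over all genes tested was −0.14, and −0.01 when libraries were scaled by the median of ratios, which turned the split of calls from 949 higher and 1417 lower to 1285 higher and 1084 lower.

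For GT against HFD, 0 of the 8 genes tested were called by limma, against 3.63% of 12766 genes. Wt1 was nearest (log2 fold change −0.70, SE 0.18, adjusted p = 0.0696) and the only one at an unadjusted p under 0.05, as held for 29.3% of all genes. Its GT mean was 1.998 ± 0.308 FPKM (SD, n = 3), and it alone had all GT values below the HFD values, as held for 24.4% of all genes. Krt8 (−1.05, SE 0.59) and Krt18 (−0.95, SE 0.61) had adjusted p-values of 0.278 and 0.338. They shrank to −0.41 and −0.20 without HFD 2, and turned to 0.24 and 0.20 without HFD 1 and HFD 2. Gpm6a, Upk1b, Krt19 and Upk3b stood at −0.26, −0.24, −0.20 and −0.12 and Msln at 0.10. TJ and GT share the HFD libraries, so their lower Wt1 values are not separate evidence.

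TJ and GT were also compared with each other. Of the 7 genes above the filter, 0 were called by limma, against 0.148% of 12187 genes, and 2 had an unadjusted p under 0.05, against 24.6% of all genes. These were Krt8 (log2 fold change −0.87, SE 0.25, adjusted p = 0.130) and Krt18 (−0.62, SE 0.24, adjusted p = 0.175), which passed the filter only through the GT group. For Krt8 the GT range of 1.64 to 2.96 FPKM and the TJ range of 0.251 to 1.17 FPKM did not overlap, as held for 14.9% of all genes. Wt1 differed by −0.14 (SE 0.19), less than its standard error. Msln, Krt19, Gpm6a and Upk3b stood at −0.14, −0.25, 0.19 and 0.00.

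Other mesothelial genes did not all follow the surface genes. Of 12 listed, 11 were in the table and 7 were tested in HFD against ND, where 0 were called with all libraries (limma, median −0.99). At an unadjusted p under 0.05 there was 1, against 11.6% of all genes. Upk3bl and Tmem151a were at 34.2 and 37.0 FPKM in ND 1 and at 1.73 FPKM or less elsewhere. The median was −0.64 without ND 1, where Aldh1a2 stood highest at 0.59 (adjusted p = 0.289 by limma). Without ND 1, Nkain4 (a membrane protein that binds the sodium pump) was the 1 called of 5, lower in the HFD group (−1.23, SE 0.23, adjusted p = 0.0240), and with HFD 2 left out as well it was not called (−1.12, adjusted p = 0.0810). Nkain4 was at 4.96, 5.40 and 5.37 FPKM in ND 1 to 3, at 1.33 to 1.95 FPKM in the HFD group, and at 6.44 FPKM in TJ 2. Rspo1 (a secreted enhancer of Wnt signaling) was at 21.4 FPKM in ND 3, at 8.70 FPKM in TJ 2 and between 1.87 and 3.90 FPKM in the other 10 libraries. TJ 2 was thus the highest TJ library for these genes too. In TJ against HFD, 2 of 5 were called and both were higher in the TJ group, as were 7.41% of all genes. Stmn2 (a microtubule regulator of neurons) rose by 1.38 (SE 0.35, adjusted p = 0.0403) and Cldn15 (a claudin of tight junctions) rose by 0.77 (SE 0.18, adjusted p = 0.0361). Both calls were lost with no filter, with the replicate number as a block, and with all 12 libraries in the fit. They were also lost without TJ 1 or any 1 HFD library, fits in which no gene was called. Cldn15 was at 4.15 FPKM in ND 1, at 24.6 to 39.0 FPKM in the other 8 ND, HFD and GT libraries, and in the TJ group at 38.6 to 59.0 FPKM. Adipoq was likewise lowest in ND 1. By limma, 0 genes of the list were called in GT against HFD, in TJ against GT and in the high-fat groups against ND. In the last the extremes were Upk3bl (−1.92, adjusted p = 0.116) and Cldn15 (1.07, adjusted p = 0.127). The median of the list there was −0.88 and, without ND 1, −0.003. At an unadjusted p under 0.05 there were 1 of 5, 2 of 5 and 4 of 7 in these comparisons, against 29.3%, 24.6% and 36.9% of all genes.

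Most other keratins were barely present. Of 47 in the table, 9 were tested in HFD against ND and 5 in the high-fat groups against ND, and the 1 call over all comparisons was Krt79, a keratin known from skin and its glands. Krt79 was at 0.719, 2.396 and 2.14 FPKM in ND 1 to 3, at 4.01 to 6.06 FPKM in the HFD group, with 5.69 to 8.21 FPKM after GT and 6.20 to 10.8 FPKM after TJ. All 9 high-fat libraries were above the 3 ND libraries, as held for 6.25% of all genes. With 8.17% of all genes called higher (9.73% without ND 1), Krt79 rose by 1.52 (SE 0.25, adjusted p = 0.00873) and, without ND 1, by 1.21 (SE 0.20, adjusted p = 0.00550). This is opposite in sign to Krt8, Krt18 and Krt19. Krt88 was at 296 FPKM in ND 1, at 6.13 FPKM in ND 3 and at 0.962 FPKM or less elsewhere. Of 6 uroplakin genes, Upk3b and Upk1b were the only ones tested in TJ against HFD. By limma none of the 10 epithelial genes was called in any of the 5 comparisons, with 0 to 8 of them above the filter. At an unadjusted p under 0.05 there were 4 of 6 in the high-fat groups against ND, against 36.9% of all genes. There were 0 in the others, against 11.6% to 41.4% of all genes.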

How the data were processed

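The authors sequenced eWAT RNA (TruSeq kit, which does not mark strand) and deposited FPKM per gene, mapped with STAR 2.4.0 and estimated with Cufflinks 2.1.1 after CASAVA 1.8.2, per the submitters' processing notes. The study's methods state masking of noncoding regions and correction for multireads and fragment bias. They name a human reference, yet all 23474 identifiers are mouse. Of these, 22671 had a symbol. Counts were not used here. Coordinates are GENCODE M21 spans (GRCm38). Groups came from the sample labels.

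Genes averaging 1 FPKM or more over the libraries compared were fitted with limma 3.58.1 (R 4.3.3; trended eBayes) on log2(FPKM + 1), which understates changes of low genes. Only the compared groups entered, except that the high-fat groups against ND used all 12 libraries. p-values were adjusted over all genes tested, and a call needed adjusted p under 0.05 and a 1.5-fold change, the study's thresholds. The script was tested on simulated data. p-values measure the spread between 3 mice a group. By rule the 9 genes were to be named in every comparison that tested them. From the other lists (mesothelial, epithelial, epididymis, germ cell, adipocyte, fibroblast and progenitor, keratin, uroplakin), the rule allowed the extremes and the called genes, of which those nearest to the 9 genes are given. Genes whose FPKM levels alone are given, such as Epcam, Crisp1 and Upk1a, were chosen after their values were seen. The 5 most alike genes were ranked by Pearson's r, and 1 of them is not reported here. Members and lists were chosen with earlier results of these data known. Depth was estimated from FPKM steps in 2315 single-transcript genes. Upstream sequence was in the RefSeq table for 5 of the 9 genes and outside the gene's span for 4.

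Replicate numbers were checked as pairs. In HFD against ND the same-numbered libraries deviated together (r of 0.547, 0.342 and 0.122), so the blocked fit is given beside that result, although no label says what a number shares and HFD 3 went more closely with ND 2 (r 0.626). Alternatives were a pseudocount of 0.1, no filter, median-of-ratios scaling, quantile normalization, the block, all libraries in the fit, and libraries left out singly or, for ND 1 and HFD 2, together. Leaving out HFD 1 and HFD 2, or these with ND 1 and ND 3, was added after seeing the data.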

Additional observations from a re-analysis of the deposited data

How the results depend on the processing

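Of the 9 genes, the count called in HFD against ND was 0 with all libraries, 4 without ND 1 (range 0 to 4 when each library was left out in turn), 0 without ND 1 and HFD 2, and 0 under the other alternatives. In TJ against HFD the 1 call became 2 with a pseudocount of 0.1 (Krt8 added, which passed the filter only through the HFD group) and 0 with no filter, median-of-ratios scaling, quantile normalization, the replicate block, all 12 libraries in the fit, or HFD 1 and HFD 2 left out (range 0 to 1 for single libraries). Over all genes, no filter gave 382 calls, median-of-ratios scaling 2369 and quantile normalization 2673. The block gave 1198, all 12 libraries 1, and HFD 1 and HFD 2 left out 0, against 2366 in the main fit. In the high-fat groups against ND the 3 calls ranged from 1 (without HFD 2, GT 1, GT 2, TJ 1 or TJ 3) to 6 (without ND 1), with 5 without ND 2. Over all genes, 760 were called lower in the main fit and 48 to 97 in the fits with 1 call. Without ND 1 it was 693, and without ND 2 it was 3174. In GT against HFD and TJ against GT the count was 0 throughout. The cause was not tested. Stmn2 and Cldn15 lost their calls in TJ against HFD with no filter, the block, all 12 libraries, or any HFD library or TJ 1 left out, with differences of 1.31 to 1.64 and 0.71 to 0.90 in these fits, and no gene at all was called without an HFD library or TJ 1.

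Some signs turned. In TJ against HFD these were Gpm6a (0.0155) and Msln (0.0384) under median-of-ratios scaling, and Gpm6a (0.28), Msln (0.25) and Upk3b (0.22) under quantile normalization. With each library left out in turn Gpm6a ranged from −0.27 to 0.15, Msln from −0.0944 to 0.42 and Upk3b from −0.73 to 0.41. In GT against HFD they were Gpm6a (0.0534), Krt19 (0.0995), Upk1b (0.0162) and Upk3b (0.17) under quantile normalization, and Krt18 (0.20), Krt8 (0.24) and Msln (−0.0384) with HFD 1 and HFD 2 left out, and Upk3b ranged from −0.54 to 0.16 over single libraries left out. In TJ against GT it was Upk3b (−0.0837) with a pseudocount of 0.1. With single libraries left out, Gpm6a ranged there from −0.0106 to 0.41, Krt19 from −0.30 to 0.0408, Msln from −0.33 to 0.31, Upk3b from −0.62 to 0.53 and Wt1 from −0.25 to 0.0123. In the high-fat groups against ND they were Krt18 (0.0766) and Krt8 (0.68) with 4 libraries left out.

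The replicate block left the count of the 9 genes at 0 in HFD against ND (255 to 0 over all genes) and at 3 in the high-fat groups against ND. In TJ against HFD (r of −0.0287, −0.0514 and 0.227), GT against HFD (0.198, 0.0534 and −0.0698) and TJ against GT (0.371, −0.213 and −0.0793) equal numbers did not pair the libraries. The block moved the calls over all genes from 2366 to 1198, from 464 to 5 and not at all (18). Few fragments lay behind the lowest FPKM values, about 2.82 for Msln, 9.14 for Upk1b and 6.41 for Krt19 in TJ 1 and about 10 for Krt18 in TJ 3.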
